A study of Mus musculus with 32 samples.

Results

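The light polysome response to serum withdrawal was measured in mouse NIH 3T3 fibroblasts and in NIH 3T3/4E cells, labelled 4E, a derivative that ectopically overexpresses the translation initiation factor eIF4E. The study has 32 deposited columns, titled 1 to 4 in each group. Columns 1 and 2, and columns 3 and 4, were averaged as 1 sample. The labels do not say that such columns are 1 sample, and this was inferred from their values. The comparison uses 8 of the 16 samples formed in this way, with line, fraction and serum state taken from the labels. They are the light fraction of each line in complete medium (basal) and after 16 h without serum (starved), with 2 samples for each of the 4 combinations. Starved and basal samples were compared with equal weight for both lines, 4 samples against 4. Light means gradient fractions 4 to 6, which carry fewer than 1 ribosome per transcript, and heavy means fractions 7 to 10. Every RNA was hybridised against a common reference, unfractionated poly(A) RNA from NIH 3T3 grown in full medium, so both lines and both serum states share it. The labels say neither whether the 4E line is 1 clone or a pool, nor whether replicate samples are separate cultures, nor whether light and heavy pools came from the same gradients. The p-values thus measure the spread between these samples, which may be technical.

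eIF4E binds the cap at the 5′ end of mRNAs and recruits the other factors that bring the small ribosomal subunit to the message. Growth factors in serum keep this step active through mTOR, and when serum is withdrawn the 4E-binding proteins hold eIF4E back. Many mRNAs then lose ribosomes and collect in the light part of a gradient, foremost those of ribosomal proteins and elongation factors. Free eIF4E escapes this control when it is overexpressed, and such cells resist death on serum withdrawal. A light fraction value joins the amount of an mRNA with its share outside large polysomes, and these cannot be told apart from the light fraction alone.

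The array carried the NIH 15k mouse cDNA collection, and 15210 of 15247 clones had a value in all 8 light samples. No file used here links these clones to genes, and a search of the mouse RefSeq table matched 0 of their IDs. Clones are therefore named by ID, with no gene, no sequence and no check of eIF4E or of fibroblast markers, and at most 2 positive and 2 negative clones are named for a comparison. A clone ID gives the clone's place in the collection: H3003F10 lies on plate 3003, row F, column 10. Values are log ratios to the reference, taken as log2 and centred on each sample's median. Whether a positive value stands for more or for less RNA than the reference is not given in the sources used here. Positive and negative below are signs on the deposited scale, and a difference is always starved minus basal.

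The 8 light samples were similar in spread. Their median absolute deviation across clones ran from 0.47 in the first NIH 3T3 basal sample to 0.68 in the first NIH 3T3 starved sample. Replicate samples correlated across clones at r of 0.62 to 0.66. Samples of the same line in the other serum state correlated at 0.49 to 0.58 (median 0.54). Those of the other line in the same serum state correlated at 0.42 to 0.61 (median 0.53). Pairs that differed in both line and serum state correlated at 0.49 to 0.65 (median 0.55). For 6 of the 8, the best match was the replicate. The second NIH 3T3 starved sample and the first 4E basal sample were closest to each other, with r of 0.65. The control rows of the array (buffer and Arabidopsis) were filled in both NIH 3T3 basal and both 4E starved samples and empty in both NIH 3T3 starved and both 4E basal samples. This split is balanced between starved and basal samples when both lines weigh the same. It coincides with any difference between the lines in their response and, within a single line, with serum state. Pairs that differ in both line and serum state lie on the same side of it.

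Summed over all clones, serum state took 15.7% of the light samples' sum of squares, which was 1.34 times the mean square between replicate samples. Cell line took 17.6%, the cell line by serum term 20.0% and replicate samples 46.8%. Permuting the serum labels within each line gave a two-sided exact permutation p of 0.222 for the serum term. The smallest p that the 36 relabellings allow is 0.0556. Swapping the labels in 1 line only is among them and gives the line by serum term, which took the larger share. This p thus does not set serum against replicate spread alone. In the heavy samples serum took 16.8%, 1.51 times the mean square between replicates.

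Averaged over both lines, 2 clones differed between starved and basal light samples, H3003F10 and H3124H10. This is 0.0131% of the 15210 tested with limma at an adjusted p under 0.05. Within NIH 3T3 alone neither passed (limma, adjusted p = 0.0823 and 0.181), and within 4E both did (0.0288 each). Clone H3003F10 was negative in starved and positive in basal cells, and clone H3124H10 was negative in all 8 light samples, less so in starved than in basal cells. Before adjustment 1078 clones, or 7.09%, had a p under 0.05, of which 588 were positive and 490 negative. With an adjusted p under 0.10 there were 13 clones, 7 positive and 6 negative.

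Clone H3003F10 stood at 1.12 and 1.26 in the NIH 3T3 basal samples and at 0.79 and 1.27 in the 4E basal samples. In starved cells it stood at -1.14 and -1.02 in NIH 3T3 and at -1.34 and -1.36 in 4E. All 4 starved samples lay below all 4 basal samples, and the basal and starved values had opposite signs. The mean was 1.11 ± 0.22 in basal and -1.21 ± 0.17 in starved samples (SD, n = 4 each). The difference was -2.32 (SE 0.22, 95% interval -2.81 to -1.84, adjusted p = 0.00867). The lines gave nearly the same size, -2.26 in NIH 3T3 and -2.38 in 4E.

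Clone H3124H10 stood at -2.38 and -2.81 in the NIH 3T3 basal samples and at -2.56 and -2.64 in the 4E basal samples. After starvation it stood at -0.73 and -1.03 in NIH 3T3 and at -0.21 and -0.23 in 4E. The basal samples were alike in both lines, and all 4 starved samples lay above them. The mean was -2.60 ± 0.18 in basal and -0.55 ± 0.40 in starved samples (SD, n = 4 each). The difference was 2.05 (SE 0.24, 95% interval 1.51 to 2.59, adjusted p = 0.0373), made of 1.72 in NIH 3T3 and 2.38 in 4E.

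**Figure D1:**
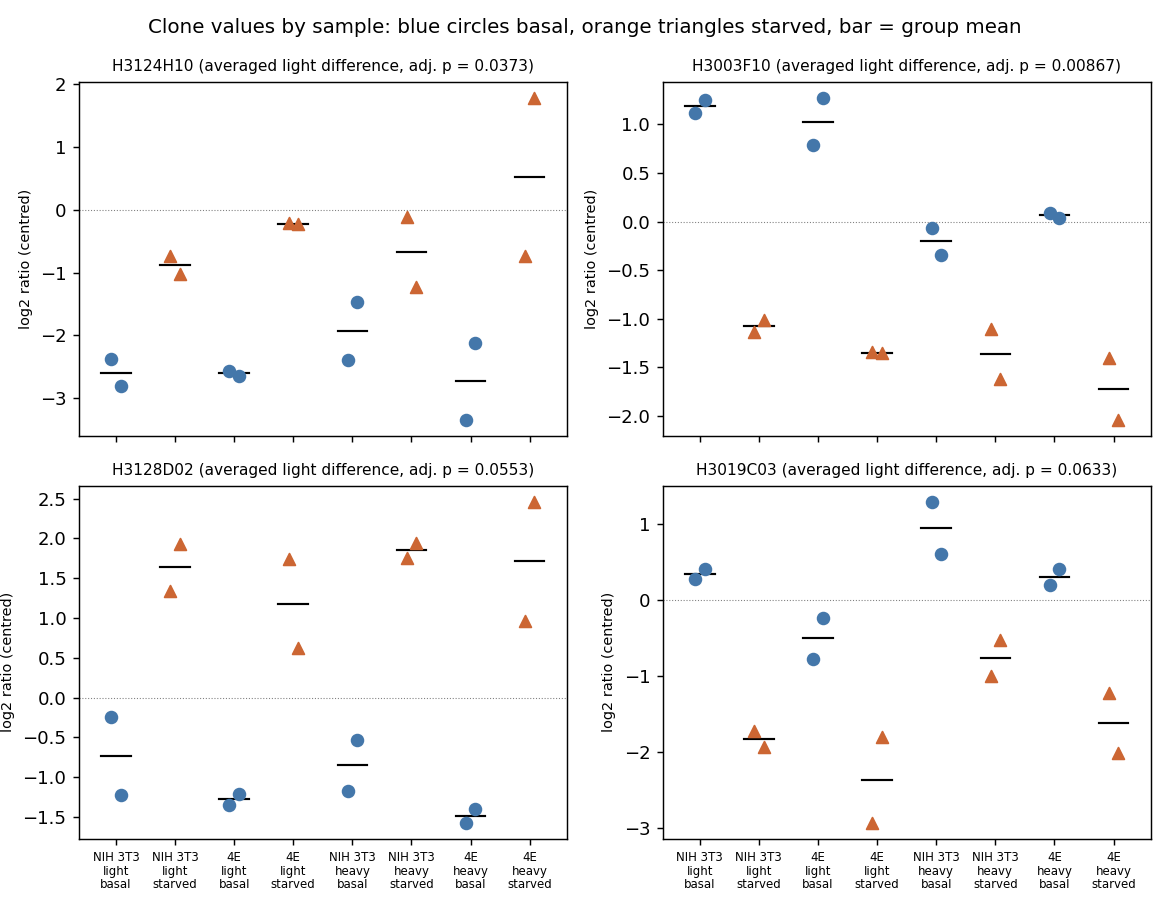
Centred log2 ratio to the common reference (y axis) of 4 clones in the 8 groups by line, fraction and serum (x axis), with a point for each sample and a bar for the group mean. For H3003F10 the 4 starved light samples sit between -1.36 and -1.02 and the 4 basal ones between 0.79 and 1.27, and for all 4 clones starved and basal samples are apart in both fractions.

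The differences of the 2 clones kept their sign and size when any 1 sample was left out (-2.41 to -2.21 for H3003F10 and 1.97 to 2.20 for H3124H10). Only H3003F10 passed, and only in the fit without the first 4E basal sample; in the 7 other fits of this kind no clone passed by limma, and over all 8 fits 880 to 1244 clones had an unadjusted p under 0.05. Subtracting each plate's median gave 0 clones by limma (1153 had an unadjusted p under 0.05), and the adjusted p of both clones was then 0.0698. Quantile normalization gave 6 clones, 5 positive and 1 negative, and scaling to 1 median absolute deviation 5, of which 4 were positive.

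The positive and the negative clone with the smallest p among those that did not pass were chosen after their values were seen; by p they had ranks 3 and 6 among all clones. Clone H3128D02 stood at -0.24, -1.23, -1.35 and -1.21 in the basal samples (NIH 3T3, then 4E) and at 1.34, 1.93, 1.74 and 0.62 in the starved ones. Its difference, 2.42 (SE 0.32, adjusted p = 0.0553), was larger than that of H3124H10, but its samples were more spread. Clone H3019C03 stood at 0.28, 0.41, -0.77 and -0.23 in the basal and at -1.72, -1.94, -2.93 and -1.80 in the starved samples, a difference of -2.02 (SE 0.29, adjusted p = 0.0633). Starved and basal light samples did not overlap for either clone.

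For most clones the light fraction difference was within 1 log2 unit of 0, with intervals wide against its typical size. The median absolute difference was 0.22 and the median half-width of the 95% interval 0.62, with no adjustment for the number of clones. For 10031 clones (66.0%) the whole interval lay within 1 log2 unit of 0. Differences past 1 were found at 268 clones (1.76%), 156 positive and 112 negative, and differences past 2 at 4 positive and 4 negative clones. The median over all clones was 0.02, which centring on the sample medians holds near 0, so a shift of most mRNAs into or out of the light fraction could not be seen.

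Starved and basal light samples did not overlap at 658 clones, 4.33% of those tested. Some clones would separate in this way without any effect of serum, and how many was not tested. All starved samples lay above all basal ones at 362 clones (2.38%) and below them at 296 (1.95%). Of these, 121 clones (0.796%) also had an averaged difference past 1, 68 positive and 53 negative, with a median absolute difference of 1.21. The 2 called clones are among the 121. Leaving out 1 light sample gave 135 to 233 such clones, with 233 without the first NIH 3T3 basal, 215 without the second NIH 3T3 starved and 183 without the second 4E starved sample; 4 samples against 3 overlap less often by construction. Both columns of a sample were equal at a median of 0 light samples for the 121 clones and of 1 for all clones, so repeated values were not more common among them. The count was 70 (45 positive) among the 6054 clones whose paired columns were unequal in every light sample.

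The 121 clones were next read in the 8 heavy samples, which had no part in their choice. The heavy difference had the same sign as the light one at 117 of the 121 clones (96.7%), against 9592 of 15169 (63.2%) over all clones. Among the 68 positive clones 66 were positive in the heavy samples too, and among the 53 negative clones 51 were negative. The heavy difference of the 121 had a median of 1.13 in the direction of the light one, against 0.12 over all clones. In the heavy samples 60 of the 121 clones again had no overlap between starved and basal samples, in the same direction. Over all clones, 684 of 15203 (4.5%) had no overlap in the heavy samples in either direction, and 145 of 15169 (0.956%) had none in both fractions in the same direction. Of the clones with a light difference past 1, whether or not their samples overlapped, 248 of the 266 with heavy values had the same sign in both fractions (93.2%), and past 0.5 it was 1982 of 2465 (80.4%). Across 15169 clones the light and heavy differences correlated at r = 0.48, and at 0.64 over the 6044 clones with unequal columns in the light samples. Light and heavy samples share the reference RNA, and whether they share cultures is not given in the labels. The heavy samples therefore cannot be taken as an independent repeat. Between the first and the second sample of each light group, the averaged difference correlated at r = -0.05.

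**Figure D2:**
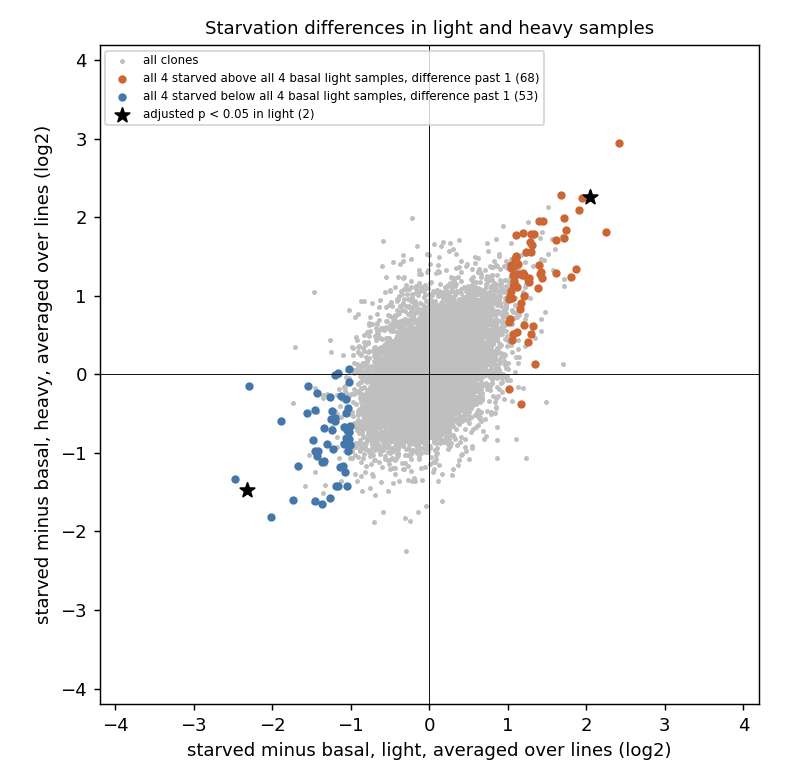
Starved minus basal difference averaged over both lines in the light samples (x axis) against the heavy samples (y axis), both in log2 units, with a point for each clone. Of the 121 coloured clones 117 lie at lower left or upper right, where the signs match, while the grey cloud of all clones has r = 0.48.

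The called clones differed in how the heavy samples compared. Clone H3124H10 stood at -2.39, -1.46, -3.35 and -2.12 in the heavy basal samples (NIH 3T3, then 4E) and at -0.11, -1.24, -0.73 and 1.78 in the heavy starved ones. These groups did not overlap, and the heavy difference of 2.26 (SE 0.61, adjusted p = 0.379) was close to the light one of 2.05 but with wider spread. Clone H3003F10 stood at -0.06, -0.35, 0.09 and 0.04 in the heavy basal and at -1.11, -1.63, -1.41 and -2.04 in the heavy starved samples. Its heavy basal samples lay between -0.35 and 0.09, whereas its light basal samples were all positive, and its heavy difference was -1.48 (SE 0.27, adjusted p = 0.209). The light minus heavy gap of its responses was -0.85 (SE 0.32), with an adjusted p of 1.00 over all clones.

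In the heavy samples alone limma called 0% of 15203 clones, while 1166 had an unadjusted p under 0.05. Clone H3128D02 came nearest there too, at 2.95 (SE 0.34, adjusted p = 0.0665), and clone H3019C03 was the first among the negative ones, at -1.82 (SE 0.29, adjusted p = 0.164). The test of a difference between the fractions in their starvation response was fitted over all 16 samples. It called 0% of 15169 clones by limma, and 361 (2.38%) had an unadjusted p under 0.05. That share is below the 0.05 that independent samples without any effect would give. The test took light and heavy samples as independent, and whether they share deviations was not tested. Without the second NIH 3T3 heavy basal sample it called 6 clones, all positive. Its median 95% half-width was 0.84, with no adjustment for the number of clones, so a smaller gap could not be seen at a typical clone. Larger gaps could also go uncalled: those past 1 were found at 128 positive and 231 negative clones, and none passed. Clone H3072H07 had the smallest p in that test. It stood between -0.38 and 0.38 in all light samples and between -0.12 and 0.49 in the heavy basal samples. In the heavy starved samples it stood at 0.82, 0.03, 1.93 and 2.34 (NIH 3T3, then 4E). Its paired columns were equal in both 4E heavy starved samples and stood at 1.35 and 0.30 in the first NIH 3T3 heavy starved sample. Its light minus heavy gap was -1.56 (SE 0.34), with an adjusted p of 1.00.

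Within NIH 3T3, limma called 0% of the clones between starved and basal light samples. An unadjusted p under 0.05 was found at 1427 (9.38%). Control rows were filled in the basal and empty in the starved samples of this line. Serum state and that split thus cannot be told apart here. The smallest adjusted p was 0.0823, and 8 clones had one under 0.10. Clone H3108G06 stood at -0.32 and 0.13 in basal and at 3.06 and 2.50 in starved NIH 3T3 samples, a difference of 2.87 (SE 0.36). In 4E cells it stood at 1.24 and 1.65 in basal and at 0.46 and 0.03 in starved samples, which runs the other way. Clone H3105H04 stood at 0.21 and 0.17 in basal NIH 3T3 samples and close to -2.02 in both starved ones, a difference of -2.20 (SE 0.30), and at -1.93, -1.72, 0.07 and 0.37 in the corresponding 4E samples. Clone H3112C01 differed by 2.43 and clone H3003F10, described above, by -2.26. Without the second NIH 3T3 starved sample 34 clones passed, 17 of each sign. Without the second basal sample 8 passed, and without the first basal or the first starved sample 2.

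Within 4E cells limma called 17 clones (0.112%) between starved and basal light samples, 10 positive and 7 negative. Their differences were 2.04 to 3.82 in size. Control rows were filled in the starved and empty in the basal 4E samples. Serum state and that split cannot be told apart here either. Scaling to 1 median absolute deviation gave 9 clones, 4 positive and 5 negative. Clone H3154E06 went from -0.05 and 0.29 in basal to -3.53 and -3.86 in starved 4E samples, a difference of -3.82 (SE 0.37, adjusted p = 0.0185). It ran the same way in NIH 3T3, from 0.02 and 0.81 to -0.94 and -0.50. Clone H3110A08 went from -0.12 and 0.30 to 3.23 and 3.29 in 4E, a difference of 3.17 (SE 0.35, adjusted p = 0.0185), and from 0.86 and 1.23 to -0.46 and 0.16 in NIH 3T3. Clone H3157G08 differed by 3.19 (SE 0.40, adjusted p = 0.026) and clone H3109C02 by -2.95 (SE 0.36, adjusted p = 0.026) in 4E. Of the 17 clones, 5 had the same sign in NIH 3T3, and the NIH 3T3 difference had a median of -1.06 in the direction of the 4E one. Over all clones 7311 of 15210 had the same sign in both lines, with a median of -0.03. Leaving out 1 sample gave 0 clones (without the first 4E starved sample) to 25 (without the first 4E basal sample, 5 of them among the 17), and 1 to 6 without any of the other 6. A fit of the 4 samples of 4E alone gave 0 clones by limma, and 1733 had an unadjusted p under 0.05.

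The lines differed in their light starvation response at 95 clones, 0.625% of those tested, 48 positive and 47 negative when the NIH 3T3 difference is subtracted from that of 4E. Of the 17 clones called in 4E, 13 are among them. At 94 of the 95 the lines had opposite signs, against 7899 of all 15210 clones (51.9%); a large difference between the lines favours opposite signs, so this share follows in part from how the 95 were chosen. Clone H3106E06 stood at 1.01 and 1.98 in NIH 3T3 basal and at 2.11 and 1.93 in 4E starved samples, against -0.57 and -0.65 in NIH 3T3 starved and -1.52 and -0.78 in 4E basal samples. Its term was 5.28 (SE 0.57, adjusted p = 0.0154). Clone H3012B03 stood at 0.44, 0.78, -0.22 and -0.36 in the former 4 samples and at -3.94, -2.38, -2.96 and -1.82 in the latter 4, a term of 5.88 (SE 0.75, adjusted p = 0.0168). The negative clones H3152B02, with a term of -4.96 (SE 0.69, adjusted p = 0.0196), and H3109H04, with a term of -4.73 (SE 0.73, adjusted p = 0.0264), had the mirror image.

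**Figure D3:**
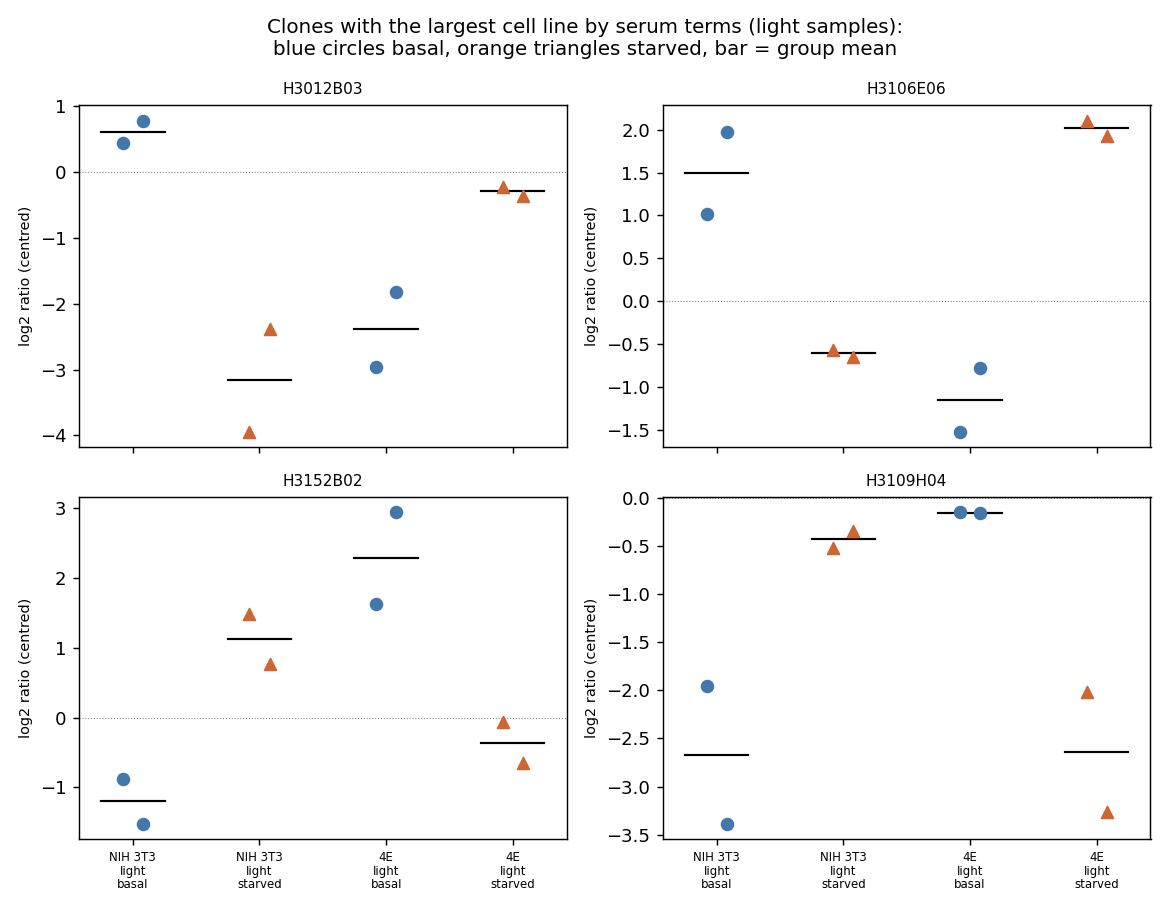
Centred log2 ratio to the reference (y axis) in the 4 light groups (x axis) for the 4 clones with the largest cell line by serum terms, with a point for each sample and a bar for the group mean. In each panel the NIH 3T3 basal and 4E starved samples sit on one side and the NIH 3T3 starved and 4E basal samples on the other, which is also the split by filled control rows.

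All 4 of these clones had their NIH 3T3 basal and 4E starved samples together and apart from the others. The same samples are the ones with filled control rows, so the line by serum term and this split cannot be told apart. Without either of the 4E starved samples the term called 0 clones by limma (1704 without the first and 1552 without the second had an unadjusted p under 0.05). Leaving out any of the other 6 gave 3 (without the first NIH 3T3 basal sample) to 44 clones. Across clones the differences of the lines correlated at r = -0.12, and at 0.00 over the 6054 clones with unequal columns. The averaged difference is not moved by this term: with 1 mean for each light group, which takes the term and the split out of the residual, 3 clones passed, both called clones among them.

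**Figure D4:**
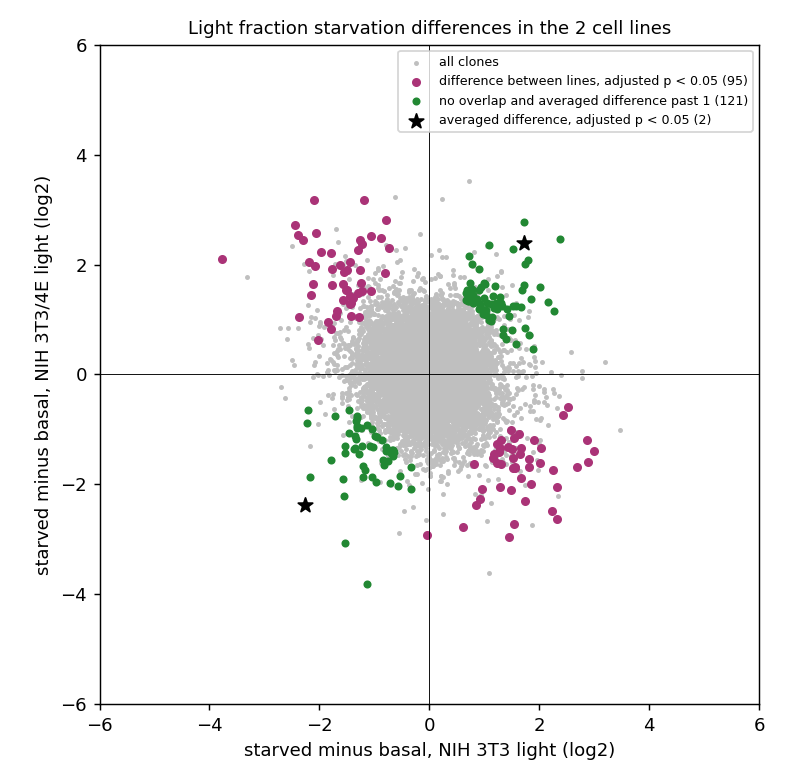
Starved minus basal difference of the light samples in NIH 3T3 (x axis) against NIH 3T3/4E (y axis), in log2 units, with a point for each clone. Of the 95 clones that differ between the lines 94 lie at upper left or lower right, where the signs are opposite. The 121 clones without overlap and past 1 lie where the signs match, which the rule of no overlap fixes in advance.

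Computed from the first sample of each light group alone and from the second alone, the averaged difference correlated across 15210 clones at r = -0.05. Above a size of 1 both lines had the same sign at 256 of 268 clones (95.5%) and above 0.5 at 2136 of 2473 (86.4%), against 48.1% of all clones. An average over both lines is large mostly where they agree, so these shares follow in part from how the clones were ranked.

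Place in the collection took a small share of the variance of the light difference, and the share that chance would give was not computed. The plate of origin, read from the ID, accounted for 3.20% of the variance of the averaged difference over 159 plates, and for 2.32 to 7.25% of the variance within single light samples. Plate medians ran from -0.16 on plate 3108 to 0.24 on plate 3050, and 25 plates had a median beyond 0.1, 18 positive and 7 negative. The 121 clones without overlap and past 1 lay on 81 plates, with at most 4 on a plate. Plate 3003, which holds the called clone H3003F10, had a median of -0.14, and plate 3124, which holds H3124H10, one of 0.02. Plate medians of the light and the heavy differences correlated at r = 0.15 over the 159 plates, and those of the NIH 3T3 and the 4E light differences at r = -0.26. Row letters and well columns accounted for 2.64% of the variance. As given above, neither called clone passed after plate medians were subtracted.

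**Figure D5:**
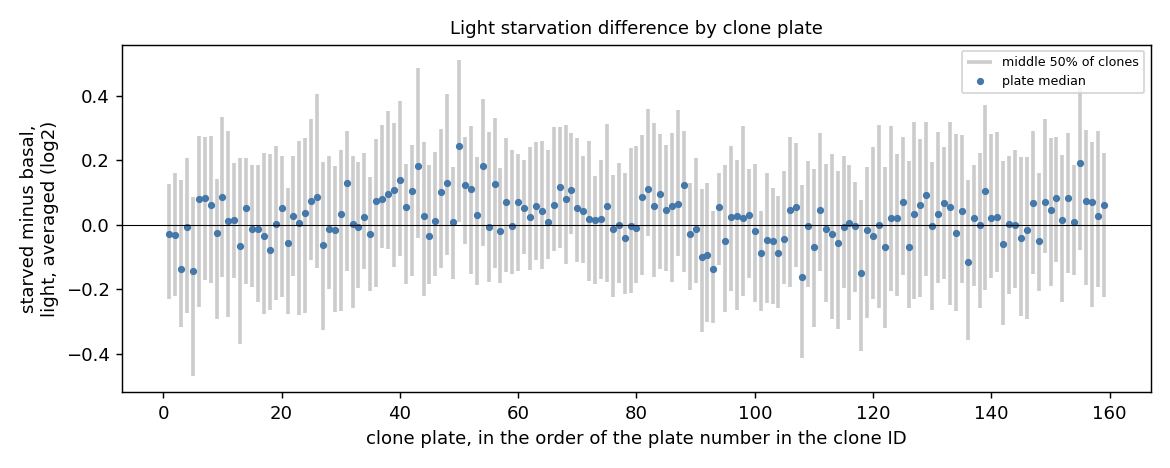
Averaged starved minus basal difference of the light samples (y axis, log2 units) for the 159 clone plates in the order of their number (x axis), with a point for the plate median and a grey bar from the lower to the upper quartile of its clones. The medians stay between -0.16 and 0.24, while the clones of each plate spread more widely.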

How the data were processed

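The deposited values are log ratios of each polysome RNA to a common reference from 2-colour hybridisation, per the labels, and were taken as log2. How the ratios were directed, scanned, corrected and normalized, and their log base, is not stated in the labels or headers read here; another base would rescale differences but change no call. The table held 15249 rows, 2 of them controls. In each light sample 1 of its 2 columns was never below the other (tolerance 1e-06), and 8.53 to 17.0% of clones had equal columns, so columns titled 1 and 2, and 3 and 4, were averaged into the first and the second sample. Clones with a missing light value (37) were left out and each sample was centred on its median.

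Differences were tested with limma (3.58.1, R 4.3.3), cell line as covariate, with moderated variances (eBayes) and p-values adjusted over all clones (Benjamini-Hochberg), threshold 0.05. The fit had 5 residual and 5.59 prior degrees of freedom. Single lines and the line by serum term came from 1 fit of 4 group means, and the fraction term from 1 of 8. The scripts were tested on simulated data. Named clones are the 2 largest of each sign among those that passed, otherwise those of smallest p. The number of arrays limits the precision. Members, rules and lists were chosen with earlier results of these data known; the gene and marker lists could not be used. Alternatives covered the paired columns, scaling, weights, filters, blocks and single samples.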

Additional observations from a re-analysis of the deposited data

Results flagged for a closer look

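The starvation difference of the light fraction differed between the cell lines at 95 clones by the test of the cell line by serum term. The clones with the largest terms were H3012B03 (5.88), H3106E06 (5.28), H3152B02 (-4.96) and H3109H04 (-4.73). Control rows were filled in both NIH 3T3 basal and both 4E starved samples, so this term and that split cannot be told apart. For clone H3128D02, 1 of the 4 light basal samples, the first of NIH 3T3, stood apart from the others, with a gap of 0.867 of the range of the 4 values. Chance flags about 1 in 20 groups of this size.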

How the results depend on the processing

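No named clone changed sign under any alternative run, which was likely from the start, since they were chosen for large differences or small p in these data. Of the 372 values of the 21 clones that the rule took in the 6 comparisons, 291 kept their side of the threshold, 69 lost and 12 gained a call. Of the 43 values of the 2 clones added to the averaged light comparison, 34 kept their side and 9 gained a call. The averaged light count of 2 became 1 with the lower column of each pair, 6 with quantile normalization, 5 with 1 median absolute deviation, 10 among clones with unequal columns, 10 in the fit of light and heavy samples (1 of the 2 among them), 7 with array weights, 0 after plate centring, 13 at an adjusted p under 0.10, and 0 to 1 with a sample left out. Each deposited column as a replicate gave 1294, a fit that counts both columns of each sample. The count in NIH 3T3 (0) became 2 with quantile normalization, 8 with heavy samples in the fit and 0 to 34 with a sample left out. The count in 4E (17) became 6 with the lower column, 9 with 1 median absolute deviation, 9 with unequal columns, 0 from its own samples alone and 0 to 25 with a sample left out. The line by serum count (95) became 46 with the lower column, 33 with unequal columns, 160 with heavy samples in the fit and 0 to 44 with a sample left out. The heavy count (0) became 1 with quantile normalization, 1 with 1 median absolute deviation, 3 with unequal columns and 0 to 1 with a sample left out, and the fraction term (0) became 0 to 6. The 121 clones without overlap and past 1 became 70 with unequal columns and 135 to 233 with a sample left out, an alternative added after the data were seen, and the share with the same sign in the heavy samples stayed at 92.9 to 100%. The serum share of the sum of squares stayed at 15.5 to 19.1%. Apart from fewer clones (unequal columns) or samples, the cause of these moves was not tested.

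With title numbers 1 and 2 against 3 and 4 as a replicate block, the averaged light count became 1, that of 4E cells 2, the line by serum count 48 and the heavy count 1. The labels do not pair the samples by these numbers, so this is given as a check only. Deviations of same-numbered light samples correlated at 0.22 between the basal groups of the lines and at 0.10 between the starved groups. Between a basal and a starved group they correlated at -0.22 to -0.12. A block with 1 shift for both serum states cannot take up such a pattern. The fits take all samples as independent, and whether same-numbered samples of the lines are linked was not tested.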
